A study of Mus musculus with 18 samples.

Results

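Matrix metalloproteases (MMPs), ADAMTS enzymes with the related ADAMTS-like proteins, and tissue inhibitors of metalloproteases (TIMPs) are described here across all groups of an RNA-seq study of CDK8 in E0771 cells. The members were chosen by name: every gene whose symbol is Mmp, Adamts, Adamtsl or Timp followed by a number. This gave 51 of the 50686 genes in the count files, of which 23 are MMP, 19 ADAMTS, 5 ADAMTS-like and 4 TIMP genes. Of these, 26 had enough reads to be tested (11 MMP, 10 ADAMTS, 3 ADAMTS-like and 2 TIMP genes).

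E0771 is a mouse triple-negative mammary tumor cell line. All cells carried a Firefly luciferase construct and a retroviral hairpin vector with mCherry, by which they were sorted. The hairpin was directed against Renilla luciferase (cntrl) or against Cdk8 (shCdk8-1 or shCdk8-2). Each of the 3 cell lines was kept for 48 hours in DMSO or in 1 µM Senexin B (SnxB), an inhibitor of the kinases CDK8 and CDK19, which gave 6 groups with 3 libraries each and 18 libraries in all.

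The cells were grown in culture, so the data hold no stromal or immune cells of a tumor, and there was 1 hairpin control line. With 1 line per hairpin, an effect of a hairpin and other differences between the lines cannot be told apart. The labels do not say that the 3 libraries of a group came from separate cultures, so p-values measure only the spread between these libraries, which may be technical. Libraries held 16452260 to 22664693 counts, and 3 counts correspond to 0.131 to 0.185 normalized counts (CPM, counts scaled to a common library size), the highest level that a count of 0 allows (counting error only). All libraries carry the same flow cell and lane names. In a bulk library, fewer cells of a type and less RNA per cell cannot be told apart.

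Cdk8 mRNA was at 56.1 ± 2.13 CPM (SD, n = 3) in cntrl, 21.4 ± 2.44 CPM (SD, n = 3) in shCdk8-1 and 38.9 ± 0.376 CPM in the shCdk8-2 line (SD, n = 3) in DMSO. Relative to cntrl its log2 change was -1.39 with shCdk8-1 and -0.54 with shCdk8-2. Defining epithelial markers were nearly absent: Epcam had at most 0.476 CPM in any library and Krt18, Krt5 and Krt14 at most 1 count. Krt8 was at 0.0549 CPM in cntrl, 7.51 CPM in shCdk8-1 and 13.04 CPM in shCdk8-2 cells in DMSO. The authors describe triple-negative cells as lacking the estrogen and progesterone receptors (Esr1 and Pgr), while HER2 (Erbb2) is expressed at a normal level. Pgr had no count, Erbb2 was at 55.4 CPM and Esr1 at 23.1 CPM in cntrl cells in DMSO, and Esr1 was at 1.25 and 0.951 CPM in the shCdk8 lines. The summed level of 5 fibroblast markers was 547 to 556 CPM in cntrl and 381 to 438 CPM in shCdk8 cells in DMSO, nearly all of it from Pdgfra and Pdgfrb, while Thy1 had at most 1 count. Dcn went the other way, at 0.540 CPM in cntrl, 1.82 CPM in shCdk8-1 and 0.814 CPM in shCdk8-2 cells in DMSO. So did Lum, at 0.0344, 0.114 and 0.117 CPM, with too few reads to be tested. The 5 macrophage and leukocyte markers summed to 2.98 to 3.63 CPM in cntrl cells in DMSO and to 1.37 to 3.4 CPM in the shCdk8 lines. Most of this was Cd68, at 2.53 CPM in cntrl, 1.79 CPM in shCdk8-1 and 2.52 CPM in shCdk8-2 cells. In the same order, Ptprc was at 0.280, 0.0157 and 0 CPM and Csf1r at 0.402, 0.0157 and 0.0851 CPM, both with too few reads to be tested. The 4 endothelial markers summed to 4.95 to 5.61 CPM in cntrl, 13.8 to 15.4 CPM in shCdk8-1 and 6.43 to 6.92 CPM in shCdk8-2 cells in DMSO, and moved in opposite directions: Pecam1 was at 0.286, 14.3 and 5.85 CPM, Cdh5 at 4.34, 0.206 and 0.595 CPM and Kdr at 0.606, 0.0534 and 0.112 CPM in these 3 lines. With SnxB in cntrl cells, the fibroblast markers summed to 633 to 729 CPM and the endothelial markers to 2.72 to 3.25 CPM. The part of these differences in the results below was not tested.

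MMPs are zinc-dependent proteases that are made as inactive proenzymes, and most are secreted. Collagenases open fibrillar collagen, gelatinases digest denatured collagen and the collagen of basement membranes, and stromelysins cleave many matrix proteins and activate other proenzymes. ADAMTS enzymes are secreted proteases with thrombospondin repeats that cleave proteoglycans, procollagens and von Willebrand factor. ADAMTS-like proteins share their ancillary domains but lack the protease, and TIMPs bind the active site of the proteases and block it. In tumors these enzymes are studied for their part in invasion and metastasis.

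Several of the MMP genes lie side by side. The cluster on chromosome 9 spans GRCm38 positions 7272514 to 7699585 (427 kb) and holds 10 Mmp genes in the order Mmp13, Mmp12, Mmp1b, Mmp3, Mmp1a, Mmp10, Mmp8, Mmp27, Mmp20 and Mmp7. Promoters (250 bases before to 50 bases after the start, RefSeq, GRCm38.p6) of 36 members were searched for the letters TGAGTCA and their reverse complement TGACTCA, which overlap in part, and a gene with several promoters was counted where at least 1 holds them. These are the letters of the classical AP-1 site, bound by Jun and Fos proteins. They were found in the promoters of 7 of the 10 cluster genes, including all 5 cluster genes with enough reads to be tested. Of the 26 other members with a promoter, 0 had them. Of 27025 genes with a promoter in the table, 5.95% have at least 1 promoter with these letters, as do 5.2% of all 32851 promoters. Mmp12 and Mmp7 each have 2 promoters, of which 1 holds them. The 15 members without a promoter in the table include Mmp9, Mmp2, Adamts7 and Adamts8. The stretches of the 5 tested genes are shown because these genes fell most of all members with the knockdown, and the capitals mark the match.
Mmp13 (plus strand, chr9:7272468-7272497): ccccaaagtggTGACTCAtcactatcatgc
Mmp1b (minus strand, chr9:7388101-7388130): gttacaaagccTGAGTCAtatagcctctgg
Mmp3 (plus strand, chr9:7445765-7445794): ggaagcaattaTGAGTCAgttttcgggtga
Mmp1a (plus strand, chr9:7464057-7464086): gttgtcaaccaTGAGTCAcatagcctctgg
Mmp10 (plus strand, chr9:7502268-7502297): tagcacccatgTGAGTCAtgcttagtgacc
The first base of the match lies 35 bases before the start in Mmp13, 46 in Mmp3, 63 in Mmp10, 73 in Mmp1a and 93 in Mmp1b. The other 2 cluster genes with the letters, Mmp12 and Mmp7, had at most 10 counts and no count in a library. A match is a description of the letters and does not show that a factor binds there.

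Differences were tested with edgeR's quasi-likelihood test with Benjamini-Hochberg adjustment over all genes. A gene rose or fell where the adjusted p was under 0.05, and was called deregulated where the fold change was also above 2. In cntrl cells in DMSO, the order of levels per length (CPM per kb of exon, RPKM) began with Timp2 at 131 ± 2.01 RPKM (SD, n = 3), Mmp14 at 57.2 ± 1.63 RPKM (SD, n = 3) and Mmp3 at 55.3 ± 3.25 RPKM (SD, n = 3). The levels of Mmp14 and Mmp3 overlap within their SDs. They were followed by Timp1 (19.9 ± 2.31 RPKM), Adamts1 (13.1 ± 0.412 RPKM), Adamts8 (12.4 ± 0.947 RPKM), Adamtsl3 (11.7 ± 0.333 RPKM) and Mmp1a (10.6 ± 0.787 RPKM, each SD, n = 3). Adamts1 and Adamts8, and Adamts8 and Adamtsl3, differ by less than the sum of their SDs.

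**Figure D1:**
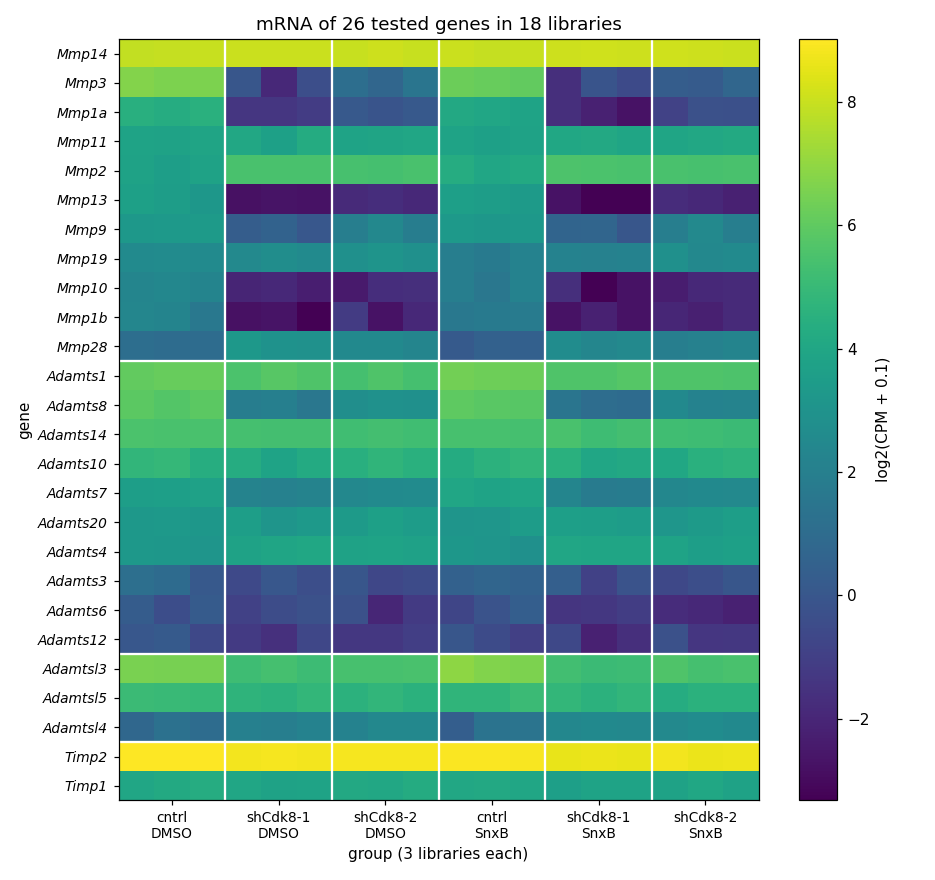
Levels of the 26 tested genes (rows, ordered by class and by level in cntrl cells in DMSO) in the 18 libraries (columns, 3 per group), as log2 of CPM plus 0.1. Mmp3, Mmp13, Mmp1a, Mmp10 and Mmp1b are dark in the shCdk8 columns in both DMSO and SnxB, and Mmp2 and Mmp28 are brighter there.

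With the CDK8 knockdown, 14 of 26 members were deregulated with shCdk8-1 (3 up, 11 down), against 12.3% of all 12590 genes tested. With shCdk8-2, 15 of 26 were deregulated (3 up, 12 down), against 10.8% of all genes tested. Of all genes, 5.01% were called higher and 7.32% lower with shCdk8-1, and 4.75% higher and 6.08% lower with shCdk8-2. Members called the same way with both shRNAs numbered 14 (3 up, 11 down), against 9.44% of all genes (4.07% higher and 5.37% lower), and both comparisons share the cntrl libraries. The upregulated genes were Mmp2, Mmp28 and Adamtsl4, and the downregulated genes were Mmp13, Mmp1a, Mmp1b, Mmp3, Mmp10, Mmp9, Adamts8, Adamts7, Adamts3, Adamts12 and Adamtsl3. The median log2 fold change of the 26 members was -0.51 with either shRNA, where that of all genes was 0.00. The 13 tested members that are not described by library under the rule used here ranged from -1.17 to 0.71 on the log2 scale with shCdk8-1 and from -1.30 to 0.58 with shCdk8-2. Of these 13, 8 passed the test with each shRNA at any fold change. That is near the share of all genes, 60.6% with shCdk8-1 and 58.2% with shCdk8-2. For the 11 MMP genes the median was -3.13 with shCdk8-1 and -1.24 with shCdk8-2.

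Mmp13, Mmp1a and Mmp1b fell strongly. Mmp13, encoding collagenase-3 (ENSMUSG00000050578.10, GRCm38 chr9:7272514-7283331, plus strand), was at 12.7, 11.4 and 9.16 CPM in the 3 cntrl libraries in DMSO, at 0.047, 0.057 and 0.0516 CPM in shCdk8-1 and at 0.174, 0.204 and 0.164 CPM in shCdk8-2. The groups did not overlap, and each shCdk8-1 library held 1 count. Taking all 3 libraries together, 604 counts in cntrl and 3 in shCdk8-1 cells gave a ratio of 213-fold (95% exact interval 72.4 to 1034, counting error only). The fitted log2 fold change with shCdk8-2 was -5.89 (SE 0.224, adjusted p = 3.44e-12).
Mmp1a, a mouse counterpart of interstitial collagenase (ENSMUSG00000043089.6, chr9:7464141-7476869, plus strand), was at 21.9, 19.6 and 22.7 CPM in cntrl libraries in DMSO, at 0.282, 0.285 and 0.362 CPM in shCdk8-1 and at 1.00, 0.817 and 0.986 CPM in shCdk8-2. No library of the knockdowns reached a level of the cntrl group. This gave a log2 fold change of -6.09 (SE 0.158, adjusted p = 2.22e-14) with shCdk8-1 and -4.51 (SE 0.127, adjusted p = 1.13e-13) with shCdk8-2 by edgeR's quasi-likelihood test.
Mmp1b (ENSMUSG00000041620.8, chr9:7368239-7388047, minus strand) was at 4.99, 4.61 and 2.99 CPM in cntrl, at 0.047, 0.057 and 0 CPM in shCdk8-1 and at 0.348, 0.0511 and 0.164 CPM in shCdk8-2 libraries in DMSO. The 227 counts in cntrl and 2 in shCdk8-1 cells gave a ratio of 119.9-fold (95% exact interval 32.8 to 996), and the fitted log2 fold change with shCdk8-2 was -4.36 (SE 0.349, adjusted p = 2.74e-08). Mmp1a and Mmp1b are paralogs, and the annotation gives Mmp1a as a polymorphic pseudogene. Reads that mapped to both would be missing from the counts, and how many there were was not measured. Mmp12 and Mmp1b overlap on opposite strands, and the counts were made by strand.

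The stromelysins of the same cluster fell too. Mmp3, encoding stromelysin-1 (ENSMUSG00000043613.8, chr9:7445822-7455975, plus strand), was at 106, 95.7 and 96.7 CPM in cntrl, at 0.893, 0.171 and 0.671 CPM in shCdk8-1 and at 2.09, 1.58 and 2.68 CPM in shCdk8-2 libraries in DMSO. The 3 groups did not overlap. In log2 terms, the fold change was -7.36 (SE 0.164, adjusted p = 4.48e-15) with shCdk8-1 and -5.56 (SE 0.133, adjusted p = 2.34e-14) with shCdk8-2.
Mmp10, encoding stromelysin-2 (ENSMUSG00000047562.3, chr9:7502352-7510240, plus strand), was at 4.87, 5.10 and 4.70 CPM in cntrl, at 0.141, 0.171 and 0.103 CPM in shCdk8-1 and at 0.0871, 0.204 and 0.219 CPM in shCdk8-2 libraries in DMSO. The shCdk8 lines overlap with each other and lie far below cntrl. The 269 counts in cntrl and 8 in shCdk8-1 cells gave a ratio of 35.5-fold (95% exact interval 17.8 to 83.1), and the fitted log2 fold change was -4.84 (SE 0.274, adjusted p = 4.25e-10) with shCdk8-2. Mmp3 and Mmp10 are paralogs too, and the same holds for reads that mapped to both.

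All 5 tested genes of the cluster were thus deregulated with both shRNAs, and the other 5 cluster genes had too few reads. Within 1000 kb of the cluster ends, 7 other genes were tested: Dync2h1, Dcun1d5, Tmem123, Birc2, Birc3, Yap1 and Cfap300. Their log2 fold changes ranged from -0.33 to 0.34 with shCdk8-1 and from -0.53 to 0.46 with shCdk8-2. With each shRNA 3 of the 7 fell, where 30.6% of all genes fell with shCdk8-1 and 29.5% with shCdk8-2. Of the 7, 0 were called deregulated, where 12.3% and 10.8% of all genes were. With 7 genes, these counts do not differ clearly from those shares.

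**Figure D2:**
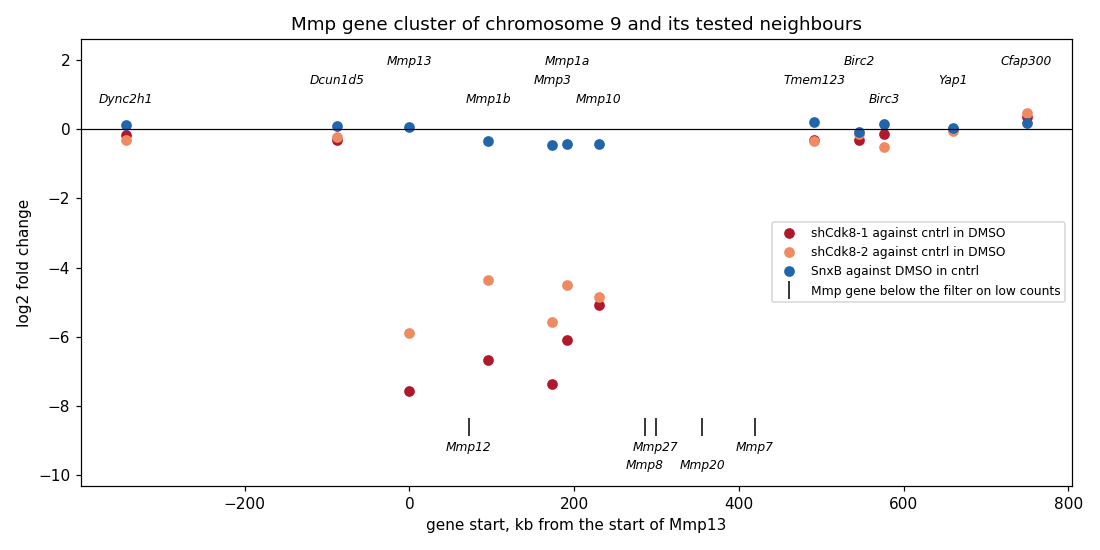
Log2 fold changes of tested genes in the Mmp cluster of chromosome 9 and within 1000 kb of it, by distance of each gene's start from the start of Mmp13 (kb), for both knockdowns and for SnxB. The 5 tested Mmp genes lie at log2 values of -4.36 or below in the knockdowns, all 7 neighbors lie between -0.53 and 0.46, and ticks mark Mmp genes below the filter on low counts.

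The 2 gelatinases moved in opposite directions. Mmp9, encoding gelatinase B (ENSMUSG00000017737.2, chr2:164940780-164955850, plus strand), was at 9.55, 9.76 and 10.6 CPM in cntrl, at 1.13, 1.37 and 0.930 CPM in shCdk8-1 and at 3.83, 5.26 and 3.67 CPM in shCdk8-2 libraries in DMSO. The 3 groups did not overlap. By edgeR, the log2 fold change was -3.13 (SE 0.160, adjusted p = 8.34e-11) with shCdk8-1 and -1.24 (SE 0.122, adjusted p = 2.88e-07) with shCdk8-2.
Mmp2, encoding gelatinase A (ENSMUSG00000031740.8, chr8:92827291-92853420, plus strand), was at 13.6, 11.9 and 13.8 CPM in cntrl, at 44.4, 44.7 and 44.3 CPM in shCdk8-1 and at 43.4, 42.0 and 44.5 CPM in shCdk8-2 libraries in DMSO. The knockdowns overlap with each other, and all 6 of their libraries lie above all cntrl libraries. Compared with cntrl, the log2 fold change was 1.76 (SE 0.0747, adjusted p = 8.63e-12) with shCdk8-1 and 1.72 (SE 0.0746, adjusted p = 1.82e-11) with shCdk8-2.

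Mmp28, encoding epilysin (ENSMUSG00000020682.17, chr11:83440768-83463071, minus strand), was at 2.09, 1.95 and 1.96 CPM in cntrl, at 9.35, 7.69 and 7.39 CPM in shCdk8-1 and at 5.79, 5.62 and 4.77 CPM in shCdk8-2 libraries in DMSO. The 3 groups did not overlap. The log2 fold change was 2.03 (SE 0.139, adjusted p = 3.01e-09) with shCdk8-1 and 1.43 (SE 0.148, adjusted p = 5.19e-07) with shCdk8-2.
Mmp14, encoding the membrane-bound protease that activates pro-MMP2, was the most abundant MMP in cntrl cells by CPM and did not pass the test. Its level was 239, 246 and 253 CPM in cntrl, 262, 264 and 258 CPM in shCdk8-1 and 252, 272 and 253 CPM in shCdk8-2 libraries in DMSO, with log2 differences of 0.09 (SE 0.0362, adjusted p = 0.0525) and 0.07 (SE 0.0361, adjusted p = 0.123). Mmp11 did not pass either, with log2 differences of 0.19 and 0.06. Mmp19 rose with shCdk8-2 (log2 0.32, SE 0.105, adjusted p = 0.0153), a call that was lost in DESeq2 (adjusted p = 0.0529) and without shCdk8-2 library 2 in DMSO (adjusted p = 0.0732).

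The summed MMP level per length was 147 ± 3.4 RPKM (SD, n = 3) in cntrl, 84.6 ± 0.684 RPKM (SD, n = 3) in shCdk8-1 and 85.2 ± 2.43 RPKM (SD, n = 3) in shCdk8-2 cells in DMSO. Mmp3 made up 37.5% of this sum in cntrl cells and Mmp14 38.9%. In shCdk8-1 and shCdk8-2 cells Mmp14 made up 71.9% and 70.7%, and Mmp2 15.6% and 15.1%.

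**Figure D3:**
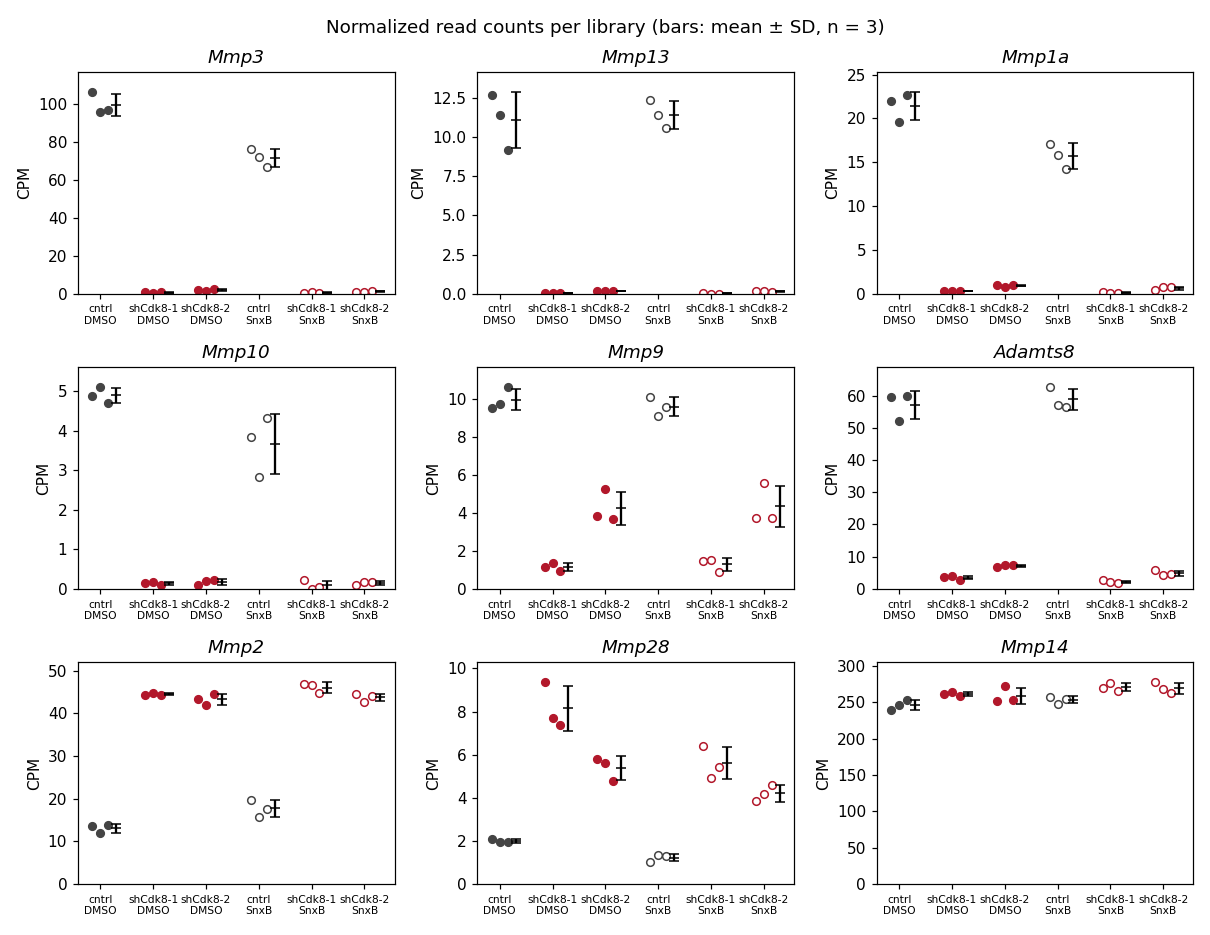
Normalized read counts (CPM, linear axes from 0) of 9 MMP and ADAMTS genes in each library of the 6 groups, with dots for libraries (open for SnxB, red for shCdk8 lines) and bars for mean ± SD (n = 3). Mmp3, Mmp13, Mmp1a, Mmp10, Mmp9 and Adamts8 are lower, and Mmp2 and Mmp28 higher, in the shCdk8 lines in both DMSO and SnxB, while Mmp14 stays between 239 and 278 CPM.

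Among ADAMTS enzymes, Adamts8, a protease first known for blocking angiogenesis (ENSMUSG00000031994.13, chr9:30942562-30963838, plus strand), fell most. It was at 59.4, 52.2 and 60.1 CPM in cntrl, at 3.71, 3.93 and 2.89 CPM in shCdk8-1 and at 6.66, 7.35 and 7.34 CPM in shCdk8-2 libraries in DMSO. The 3 groups did not overlap. In log2 terms, the fold change was -4.03 (SE 0.0959, adjusted p = 9.18e-15) with shCdk8-1 and -3.02 (SE 0.0847, adjusted p = 1.13e-13) with shCdk8-2. Adamts8 lies on chromosome 9 too, but more than 20 Mb away from the MMP cluster.
Adamts7, an enzyme that cleaves cartilage oligomeric matrix protein (ENSMUSG00000032363.15, chr9:90163069-90208071, plus strand), was at 12.01, 12.3 and 13.1 CPM in cntrl, at 4.42, 4.16 and 4.49 CPM in shCdk8-1 and at 5.27, 5.97 and 6.14 CPM in shCdk8-2 libraries in DMSO. The groups did not overlap. By edgeR, the log2 fold change was -1.52 (SE 0.0900, adjusted p = 5.23e-10) and -1.12 (SE 0.0849, adjusted p = 1.43e-08).
Adamts3, a procollagen N-propeptidase (ENSMUSG00000043635.12, chr5:89677087-89883334, minus strand), was at 2.16, 1.90 and 0.980 CPM in cntrl, at 0.564, 0.912 and 0.671 CPM in shCdk8-1 and at 0.871, 0.511 and 0.603 CPM in shCdk8-2 libraries in DMSO. The lowest cntrl library lay just above the highest knockdown library. Compared with cntrl, the log2 fold change was -1.21 (SE 0.308, adjusted p = 0.0028) and -1.29 (SE 0.307, adjusted p = 0.00197).

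The other 7 tested ADAMTS genes changed less or were at low levels. Adamts1, which cleaves versican and aggrecan, was at 69.6 ± 2.19 CPM (SD, n = 3) in cntrl, 49.9 ± 4.99 CPM (SD, n = 3) in shCdk8-1 and 44.3 ± 4.69 CPM in the shCdk8-2 line (SD, n = 3) in DMSO and fell with both shRNAs (log2 -0.48 and -0.66). Adamts4, an aggrecanase like Adamts1, rose with both (log2 0.71 and 0.58). Adamts14, a procollagen N-propeptidase like Adamts3, fell with both by a small amount (log2 -0.13 and -0.23), but with shCdk8-1 the call was lost in DESeq2 (adjusted p = 0.0616) and without cntrl library 1 in DMSO (adjusted p = 0.0574). Adamts10 fell with shCdk8-1 (log2 -0.54). Adamts12, at 1.03 CPM or less in every library, fell with both shRNAs (log2 -1.17 and -1.30), but its call with shCdk8-1 was lost without cntrl library 2 (adjusted p = 0.0724) or shCdk8-1 library 2 (adjusted p = 0.0557) in DMSO. Adamts6 was at up to 1.11 CPM in cntrl and 0.153 to 0.740 CPM in shCdk8-2 libraries in DMSO and fell with shCdk8-2 (log2 -1.14), and this call was lost without any of 4 single libraries (cntrl library 1 or 3, shCdk8-2 library 2 or 3, adjusted p 0.105 to 0.148). Adamts20 did not pass.

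Among the ADAMTS-like genes, Adamtsl3 (ENSMUSG00000070469.12, chr7:82335694-82614450, plus strand) was at 93.5, 88.6 and 89.8 CPM in cntrl, at 36.5, 42.0 and 35.2 CPM in shCdk8-1 and at 42.6, 43.6 and 43.8 CPM in shCdk8-2 libraries in DMSO. The knockdown libraries lay below all cntrl libraries. This gave a log2 fold change of -1.26 (SE 0.0738, adjusted p = 4.34e-10) and -1.07 (SE 0.0725, adjusted p = 3.75e-09).
Adamtsl4, which binds fibrillin microfibrils (ENSMUSG00000015850.11, chr3:95676201-95687917, minus strand), was at 1.66, 2.33 and 1.96 CPM in cntrl, at 4.04, 3.76 and 4.39 CPM in shCdk8-1 and at 4.27, 5.36 and 5.26 CPM in shCdk8-2 libraries in DMSO. No knockdown library overlapped with cntrl. The log2 fold change was 1.02 (SE 0.214, adjusted p = 0.000607) and 1.30 (SE 0.206, adjusted p = 5.30e-05). Adamtsl5 fell with both (log2 -0.31 and -0.37).

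The inhibitors changed little. Timp2, which binds MMP14 at the cell surface and inhibits MMP2 among others, was at 503, 514 and 518 CPM in cntrl, at 441, 465 and 444 CPM in shCdk8-1 and at 460, 459 and 463 CPM in shCdk8-2 libraries in DMSO. All knockdown libraries lay below cntrl, with a log2 fold change of -0.19 (SE 0.0340, adjusted p = 0.000158) and -0.16 (SE 0.0340, adjusted p = 0.000849). Timp2 overlaps another gene, Cep295nl, on the same strand, and reads on both were left out.
Timp1 was at 15.6, 17.7 and 19.7 CPM in cntrl, at 15.6, 13.6 and 14.3 CPM in shCdk8-1 and at 17.6, 16.7 and 19.1 CPM in shCdk8-2 libraries in DMSO. Its log2 fold change was -0.30 (SE 0.0876, adjusted p = 0.0081) with shCdk8-1, where the adjusted p was 0.0674 without cntrl library 3, and -0.01 (SE 0.0850, adjusted p = 0.947) with shCdk8-2. The remaining TIMP genes, Timp3 and Timp4, had at most 7 counts and no count in a library. Of all 25 untested members, 8 had no count in any library (Adamts19, Adamts2, Mmp15, Mmp17, Mmp20, Mmp21, Mmp7 and Timp4), 13 had at most 3 and the other 4 had at most 10 in any 1 library.

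**Figure D4:**
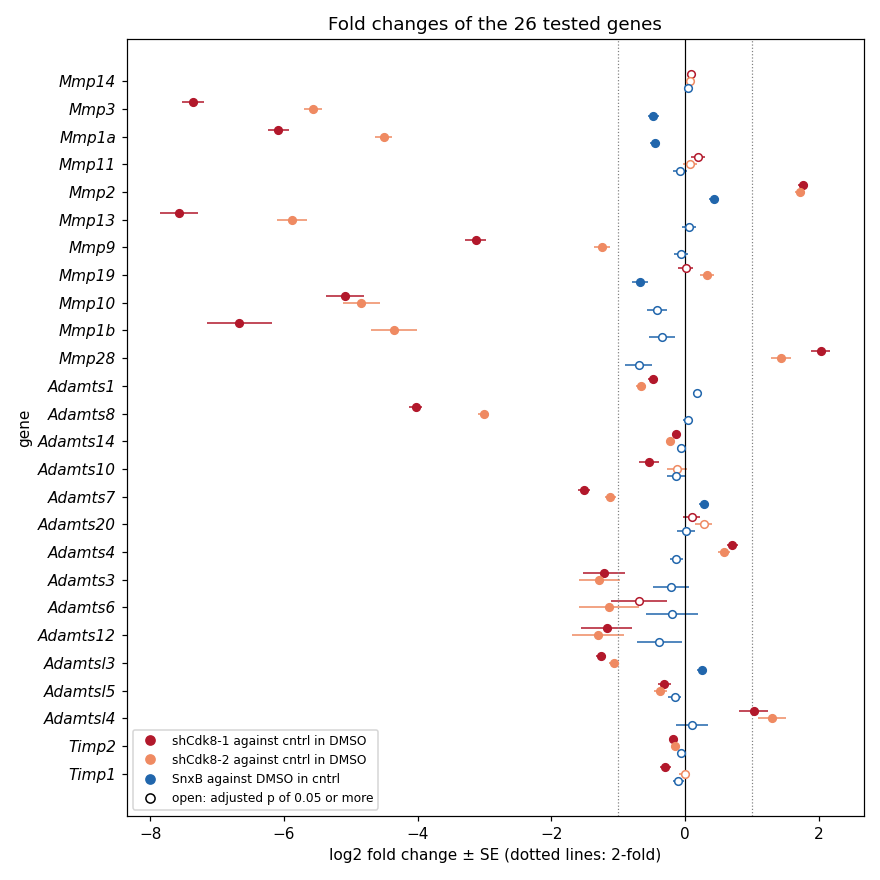
Log2 fold changes (± SE) of the 26 tested genes with shCdk8-1 and shCdk8-2 against cntrl in DMSO, and with SnxB against DMSO in cntrl cells, with filled points for an adjusted p under 0.05 and dotted lines at 2-fold. The knockdown points of the cluster genes lie at -4.36 or lower, and no SnxB point reaches a dotted line.

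The 2 knockdown lines were also compared directly. Against shCdk8-1, 4 members were called higher in shCdk8-2 cells in DMSO, against 2.07% of all genes tested. These were Mmp9 (log2 1.89), Mmp3 (1.79), Mmp1a (1.58) and Adamts8 (1.01). Adamts8 was not above 2-fold under every alternative (log2 0.89 to 1.09). A further 4 passed the test without a 2-fold difference, so 8 passed in all against 22.0% of all genes, of which Adamts7 (0.40), Mmp19 (0.32) and Timp1 (0.29) were higher and Mmp28 was lower (-0.60) in shCdk8-2. Mmp2 (log2 difference -0.04, SE 0.0653, adjusted p = 0.693) did not pass. Cdk8 mRNA itself was higher in shCdk8-2 cells (log2 0.85, adjusted p = 3.07e-07).

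Inhibition of the kinases by SnxB deregulated 0 of 26 members in cntrl cells, by edgeR's quasi-likelihood test and by DESeq2, against 0.318% of all genes tested. The unadjusted p was under 0.05 for 9 members, and 6 passed the adjusted test with changes under 2-fold, against 5.53% of all genes. Mmp3 fell from 106, 95.7 and 96.7 CPM in DMSO to 76.0, 71.9 and 66.7 CPM in SnxB (log2 -0.48, SE 0.0836, adjusted p = 0.00244). Mmp1a fell from 21.9, 19.6 and 22.7 CPM to 17.1, 15.8 and 14.2 CPM (log2 -0.45, SE 0.0778, adjusted p = 0.00226). Neither gene's libraries overlapped between DMSO and SnxB.
Mmp19 fell from 5.98, 6.02 and 5.98 CPM to 3.72, 3.29 and 4.31 CPM (log2 -0.67, SE 0.119, adjusted p = 0.00264). Mmp2 rose from 13.6, 11.9 and 13.8 CPM to 19.7, 15.8 and 17.7 CPM (log2 0.43, SE 0.0809, adjusted p = 0.00414). The SnxB libraries of both genes lay apart from the DMSO libraries. Adamts7 (log2 0.28, adjusted p = 0.0362) and Adamtsl3 (log2 0.24, adjusted p = 0.0491) rose, but lost the call under 10 and 9 of 14 alternatives, respectively, including the leaving out of several single libraries. The comparisons of SnxB and of the knockdowns with cntrl cells share the cntrl libraries in DMSO. Mmp13 was at 12.7, 11.4 and 9.16 CPM in DMSO and at 12.4, 11.4 and 10.6 CPM in SnxB, and Mmp9 had a log2 difference of -0.06 (adjusted p = 0.83).

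In shCdk8-1 cells, SnxB deregulated 0 of 26 members (edgeR's quasi-likelihood test and DESeq2), against 0.11% of all genes tested, with an unadjusted p under 0.05 for 6. Mmp28 (log2 -0.54, adjusted p = 0.016), Mmp19 (log2 -0.50, adjusted p = 0.0434) and Timp2 (log2 -0.17, adjusted p = 0.0171) fell by less than 2-fold, against 1.48% of all genes that passed. In shCdk8-2 cells, SnxB deregulated 0 of 26 (both tools), against 0.125% of all genes tested, with an unadjusted p under 0.05 for 7. Adamts8 (log2 -0.53, adjusted p = 0.0317) and Timp2 (log2 -0.14, adjusted p = 0.045) fell by less than 2-fold, against 2.05% of all genes. All 5 calls were lost when single libraries of the groups compared were left out: without shCdk8-1 library 1 in DMSO the adjusted p was 0.114 for Mmp28, without shCdk8-1 library 2 in DMSO it was 0.189 for Mmp19 and 0.1198 for Timp2, and without shCdk8-2 library 2 in SnxB it was 0.165 for Adamts8 and 0.334 for Timp2. Without passing, Mmp28 was also lower with SnxB in cntrl cells (log2 -0.70, adjusted p = 0.0544) and in shCdk8-2 cells (log2 -0.37, adjusted p = 0.189). Mmp19 was lower in shCdk8-2 cells (log2 -0.29, adjusted p = 0.248). In each of these cases all SnxB libraries lay below the DMSO libraries.

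The difference of the SnxB effect between knockdown and cntrl cells (interaction) passed for 0 of 26 members with either shRNA (edgeR's quasi-likelihood test, and 0 called by DESeq2), against 0.0391% of all genes called with shCdk8-1 and 0.0157% with shCdk8-2, and 4 members had an unadjusted p under 0.05 with each shRNA. The smallest p was that of Mmp2 in both, with a log2 interaction of -0.38 (adjusted p = 0.112) with shCdk8-1 and -0.41 (adjusted p = 0.174) with shCdk8-2.

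The knockdown comparisons were repeated in libraries kept in SnxB, which share no library with those in DMSO. They come from the same 3 cell lines, so they are no independent repeat of the knockdown. With shCdk8-1, 13 of 26 members were called (3 up, 10 down), against 12.8% of all 12772 genes tested (5.75% higher, 7.06% lower), and with shCdk8-2 14 (3 up, 11 down), against 10.8% (5.04% higher, 5.75% lower). Whatever the fold change, 19 and 22 members passed, against 60.6% and 56.7% of all genes. The log2 fold changes of all 26 members had the same sign in SnxB as in DMSO, for each shRNA. The 12 members called the same way in all 4 comparisons were Mmp2, Mmp28 and Adamtsl4 (up) and Mmp13, Mmp1a, Mmp1b, Mmp3, Mmp10, Mmp9, Adamts8, Adamts7 and Adamtsl3 (down). The shares of all genes with the same sign, or called in all 4, were not counted. Neither count is therefore shown to be particular to the members. For Mmp3, the level in SnxB was 76.0, 71.9 and 66.7 CPM in cntrl, 0.215, 0.832 and 0.582 CPM in shCdk8-1 and 1.13, 1.08 and 1.60 CPM in shCdk8-2 libraries. For Mmp13, 678 counts in cntrl and 1 in shCdk8-1 cells gave a ratio of 620.5-fold (95% exact interval 111 to 24542), and for Mmp1b 193 and 4 counts gave 44.2-fold (16.97 to 164). For Mmp2, the log2 fold change in SnxB was 1.38 (SE 0.0635, adjusted p = 1.90e-13) with shCdk8-1 and 1.31 (SE 0.0637, adjusted p = 7.22e-13) with shCdk8-2.
Mmp14 passed in SnxB with a log2 fold change of 0.09 with both shRNAs (adjusted p = 0.0273 and 0.0425), a difference of less than 7%, and its call was lost under 4 and 8 of 13 alternatives.

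**Figure D5:**
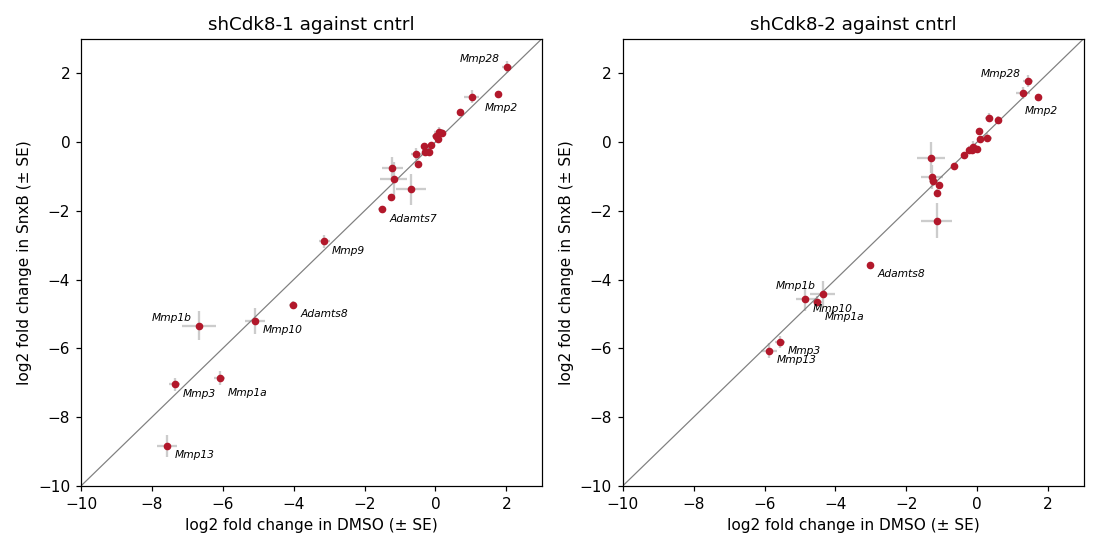
Log2 fold change (± SE) of the 26 tested genes against cntrl in DMSO (horizontal axis) and in SnxB (vertical axis), for shCdk8-1 and shCdk8-2. Points lie along the diagonal, where both values are equal, and all 26 have the same sign in both.

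Genes around the members were counted in 7 lists. Of all genes tested, 60.6% passed the test with shCdk8-1 and 58.2% with shCdk8-2 whatever the fold change, and those that fell made up 30.6% and 29.5% of all genes. With both shRNAs, 49.1% of all genes passed in the same direction at any fold change and 9.44% beyond 2-fold, and several of the counts below lie near these shares. Levels of the listed genes are given as mean ± SD over 3 libraries in DMSO. Of 7 tested activators and convertases, 1 was deregulated with both shRNAs in DMSO: Plat, the tissue plasminogen activator, went from 39.7 ± 2.30 CPM in cntrl to 6.53 ± 0.0650 CPM in shCdk8-1 and 14.7 ± 0.649 CPM in shCdk8-2 cells (log2 -2.61 and -1.44). The median log2 fold change of the list was -0.37 and -0.56, where that of all genes was 0.00. Of 4 tested inhibitors of extracellular proteolysis outside the TIMPs, 1 was deregulated: Reck, a membrane protein that inhibits MMPs, went from 0.705 ± 0.148 CPM in cntrl to 0.206 ± 0.0463 CPM and 0.298 ± 0.0523 CPM. The levels in the shCdk8 lines are near the highest that a count of 0 allows. The median of the list was -0.34 and -0.25.

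Of 8 tested ADAM genes, which encode membrane-bound relatives of the ADAMTS enzymes, 7 fell with each shRNA, 1 rose with shCdk8-2 and 4 were deregulated with both (Adam22, Adam8, Adam19 and Adam33, all down). The median log2 fold change was -1.34 with shCdk8-1 and -0.96 with shCdk8-2. Adam8, a protease of leukocytes and tumor cells, went from 7.68 ± 0.923 CPM to 1.43 ± 0.381 CPM and 1.95 ± 0.143 CPM. The others were at lower levels. Adam33 went from 2.09 ± 0.244 CPM to 0.389 ± 0.225 CPM and 1.02 ± 0.150 CPM. Adam19 went from 1.21 ± 0.155 CPM to 0.386 ± 0.399 CPM and 0.217 ± 0.0512 CPM. Adam22 went from 1.01 ± 0.235 CPM to 0.0485 ± 0.0471 CPM and 0.135 ± 0.137 CPM, near or below the highest level that a count of 0 allows. Of 8 tested receptors and docking proteins, 2 rose and 5 fell with each shRNA, and 0 were deregulated with both by edgeR's quasi-likelihood test or DESeq2. Their median was -0.15 and -0.16.

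Of 6 tested procollagen C-proteinases, enhancers and cross-linkers, 3 were deregulated with both shRNAs, all up, and the median of the list was 0.62 and 0.78. The cross-linker Loxl2 went from 0.448 ± 0.132 CPM in cntrl to 66.8 ± 1.28 CPM in shCdk8-1 and 60.7 ± 1.67 CPM in shCdk8-2 cells, the enhancer Pcolce2 had log2 fold changes of 1.71 and 1.31, and Loxl3 of 1.03 and 1.5. Of 10 tested substrates, 4 rose and 1 fell beyond 2-fold with both shRNAs, and the median was 0.96 and 0.80. Thbs2, a secreted thrombospondin, went from 2.19 ± 0.610 CPM in cntrl to 74.1 ± 3.16 CPM in shCdk8-1 and 58.2 ± 1.25 CPM in shCdk8-2 cells, and Col1a1, a fibrillar collagen that collagenases open, from 0.780 ± 0.295 CPM to 16.6 ± 1.62 CPM and 9.91 ± 0.709 CPM. For Thbs1, 3 counts in cntrl and 345 in shCdk8-1 cells gave a ratio of 109-fold (95% exact interval 36.9 to 531). Tnc, which encodes tenascin C, had log2 fold changes of -2.61 and -1.25. With SnxB in cntrl cells, 4 of the 10 substrates rose and 0 fell, against 5.53% of all genes that passed. Thbs2 rose beyond 2-fold (log2 1.05, adjusted p = 0.0009, edgeR's quasi-likelihood test), where 0.318% of all genes were called. Its interaction passed with shCdk8-1 (log2 -1.18, adjusted p = 0.00324) and not with shCdk8-2 (log2 -0.93). Col1a1 rose with SnxB in shCdk8-1 (log2 0.48) and shCdk8-2 cells (log2 0.80) but did not pass in cntrl cells.

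Of 17 tested transcription factors known to act on MMP genes, 4 rose and 12 fell with shCdk8-1, 5 rose and 11 fell with shCdk8-2, and 2 fell beyond 2-fold with both, where 5.37% of all genes did. The median was -0.50 and -0.15. Ets1 went from 759.6 ± 18.4 CPM in cntrl to 258 ± 10.3 CPM in shCdk8-1 and 336 ± 9.20 CPM in shCdk8-2 cells in DMSO. For Snai2, 94 counts in cntrl and 5 in shCdk8-1 cells gave a ratio of 19.9-fold (95% exact interval 8.21 to 62.6). The AP-1 genes on this list were looked at after the values were seen: of 7 tested, 6 fell with each shRNA, with log2 fold changes of -0.80 and -0.69 for Jun, -0.64 and -0.62 for Fosl2, -1.22 and -0.81 for Atf3 and -0.50 and -0.13 for Fosl1. Fosb rose with shCdk8-2 (log2 0.60, adjusted p = 0.0287) and did not pass with shCdk8-1 (log2 0.35). With SnxB, 1 of the 7 fell (Jund, log2 -0.35) and 0 rose, by edgeR's quasi-likelihood test.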

How the data were processed

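RNA-seq counts of 18 libraries were analysed, with groups taken from the sample labels. The authors trimmed 50 bp single-end reads with Trimmomatic, mapped them with STAR to the GENCODE M13 annotation of GRCm38 and counted reads on the exons of each gene by strand with featureCounts 1.5.1, and the deposited values are these read counts, without normalization. By that program's defaults, reads mapping to several places or to several genes were left out. Symbols came from GENCODE M21 (50376 of 50686 genes matched) and promoters from RefSeq.

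Counts were analysed with edgeR 4.0.16 (R 4.3.3): filterByExpr (minimum count 10, minimum total 15), TMM, glmQLFit and glmQLFTest, Benjamini-Hochberg over all genes tested. Knockdowns in DMSO (against cntrl and each other) and SnxB in cntrl cells were tested in a fit of the 12 libraries of those 4 groups, all other comparisons in a fit of all 18. CPM levels use the scaling factors of the 18 libraries. Standard errors came from the F statistic. Low counts were compared by exact binomial 95% intervals, which cover counting error only, since fitted fold changes of genes near 0 depend on the prior count and are no bound.

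The members and lists were chosen with earlier results of these data known. Members called in at least 1 of 10 comparisons with a group mean of at least 1 CPM are described by library, the others by log2 fold changes and their range. Of each list the genes called with both shRNAs are named, at most 4, by mean absolute log2 fold change. Mmp14, Mmp19, Timp1, Timp2 and the AP-1 genes were given more detail after their values were seen. The file headers give the 3 shCdk8-2 libraries the replicate numbers 2, 3 and 3 where the labels give 1, 2 and 3, and the labels were used. Whether they are separate cultures is not given in the sources used here. The code was tested on simulated counts. Alternatives were DESeq2 1.42.0, its size factors, library totals, other filters and library sets, a replicate block, no fold threshold and leaving out each library. Protein sequences were not used here.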

Additional observations from a re-analysis of the deposited data

Results flagged for a closer look

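A direct test between the knockdown lines in DMSO (edgeR's quasi-likelihood test with Benjamini-Hochberg adjustment) singled out 8 members of 26 as different in shCdk8-2 and shCdk8-1 cells, where 22.0% of all genes tested passed. As log2 of shCdk8-2 over shCdk8-1, the differences were 1.89 for Mmp9 (adjusted p = 2.95e-06), 1.79 for Mmp3 (adjusted p = 0.000842), 1.58 for Mmp1a (adjusted p = 0.00163) and 1.01 for Adamts8 (adjusted p = 2.76e-05). All 3 shCdk8-2 libraries lay above all 3 shCdk8-1 libraries for each of these 4 genes. Smaller differences were 0.40 for Adamts7 (adjusted p = 0.00994), -0.60 for Mmp28 (adjusted p = 0.00124), 0.32 for Mmp19 (adjusted p = 0.04) and 0.29 for Timp1 (adjusted p = 0.0262). The differences of Mmp19 and Timp1 lost the call under 9 and 4 of 14 alternatives, among them the leaving out of single libraries of either line. That of Adamts8 passed under all 14 but ranged from 0.89 to 1.09, so it was not always above 2-fold. Cdk8 mRNA was at 21.4 CPM in shCdk8-1 and 38.9 CPM in shCdk8-2 cells. The part of the remaining Cdk8 level in these differences was not tested.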

How the results depend on the processing

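The 104 results on single genes that had passed the test (adjusted p under 0.05) were followed under 1536 alternatives in all. Of these alternatives, 0 reversed the direction, 1440 kept the direction and an adjusted p under 0.05, and 96 kept only the direction. Results that had not passed were left out, and a drop below 2-fold was not counted as a loss. Such drops included Adamtsl4 with shCdk8-1 in DMSO, whose log2 fold change ranged from 0.93 to 1.16. They also included Adamts8 for shCdk8-2 against shCdk8-1 in DMSO (0.89 to 1.09). Without a fold threshold (adjusted p alone), the counts of members were 6 for SnxB in cntrl, 3 in shCdk8-1, 2 in shCdk8-2, 8 for shCdk8-2 against shCdk8-1 and 22 for shCdk8-2 against cntrl in SnxB (where 56.7% of all genes passed), and those called with both shRNAs became 4 activators, 2 inhibitors, 7 ADAM genes, 7 docking proteins, 5 procollagen enzymes, 9 substrates and 15 transcription factors, where 49.1% of all genes passed the same way with both. With a filter of over 1 CPM in 3 libraries, 0 inhibitors were called, since fewer genes were tested.

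Leaving out each library in turn gave 13 to 14 members for shCdk8-1 and 14 to 15 for shCdk8-2 in DMSO, 13 to 14 for both, 13 to 15 and 13 to 14 for these in SnxB, 3 to 4 for shCdk8-2 against shCdk8-1, and 0 to 0 for SnxB and interactions. The lists gave 3 to 4 ADAM genes, 2 to 3 procollagen enzymes, 5 to 6 substrates, 1 to 1 activators, 1 to 1 inhibitors, 0 to 0 docking proteins and 2 to 2 transcription factors.

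Correlations of the deviations of same-numbered libraries ran from -0.190 to 0.318 over 24 pairs, with 3 over 0.1, and in no comparison were all pairs over 0.1, the criterion used here for a pairing. For shCdk8-2 against cntrl in SnxB all 3 were positive (0.0734 to 0.318). The shCdk8-2 numbers are also uncertain, so the numbers were not taken as a pairing. With the replicate block, the counts were 14 and 15 members for shCdk8-1 and shCdk8-2 in DMSO, 14 and 14 in SnxB and 4 between the lines, and 0 for SnxB. Low counts limit the folds of Mmp13, Mmp1b and Mmp10, whose size rests on 0 to 4 counts per library in shCdk8-1 and 1 to 8 in shCdk8-2 cells.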
